A study of Mus musculus with 16 samples.

Results

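Among the genes with provisional mouse names, 72 loci differed the most between mice lacking the upstream regulatory element (URE) of *Spi1* and wild-type (WT) mice. Provisional names are of 2 kinds, a Gm symbol followed by a number, or a RIKEN cDNA clone symbol ending in Rik. A locus was kept where its mean in UREΔ or WT libraries reached 3 CPM, the count scaled to the library total, and the ratio of the genotype means, each plus 0.5 CPM, was 4 or more in either direction, in LSKs or in GMPs. Of 54347 genes in the table, 29728 carried such a name, 1045 of those reached 3 CPM in at least 1 group, and 72 were kept. In LSKs 43 loci were kept, 14 higher and 29 lower in UREΔ, and in GMPs 41 were kept, 22 higher and 19 lower. Both cell types kept 12 of them, 4 higher and 8 lower in UREΔ in each, so that 31 were kept in LSKs alone and 29 in GMPs alone. No locus was kept in opposite directions. Since these same ratios chose the loci, the difference in the cell type that chose a locus is given here as a description without a test.

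The RNA came from bone marrow of UREΔ mice, which carry a deletion of the URE, and of WT littermates, all on a C57BL/6 background and 8 to 12 weeks old. LSKs were sorted as Lin-Sca-1+c-Kit+ cells, the gate that holds stem cells and early progenitors, and GMPs as Lin-Sca-1-c-Kit+Cd16/32+ cells, the granulocyte-monocyte progenitors. Each genotype and cell type had 4 mice, giving 16 libraries with 20028302 to 29128858 assigned counts. *Spi1* itself, the targeted gene, lay at 3.31 CPM (range 1.28 to 4.60) in UREΔ LSKs and 143 CPM (78.1 to 184) in WT LSKs, and at 18.5 CPM in UREΔ GMPs and 127 CPM (73.3 to 168) in WT GMPs, so the libraries of the 2 genotypes did not overlap. All 6 markers of each sort gate were detected in its libraries, and the sum of the GMP markers was higher in UREΔ GMPs (72348 to 127827 CPM) than in WT GMPs (51222 to 61259 CPM), with 1 of 6 called, while the LSK markers summed to 2225 to 3371 CPM in UREΔ LSKs and 2893 to 4588 CPM in WT LSKs, with 1 of 6 called lower. The 8 monocyte and macrophage markers summed to 16.7 to 31.9 CPM in UREΔ LSKs against 147 to 187 in WT LSKs, and to 76.2 to 576 against 1599 to 2037 in GMPs, with none of the 8 at 0, and 5 of 8 in LSKs and 6 of 8 in GMPs were lower by the edgeR test described below. The 7 neutrophil markers summed to 204 to 372 CPM in UREΔ LSKs against 40.6 to 199 in WT LSKs, and to 308 to 1048 against 116 to 188 in GMPs, where 1 of 7 in LSKs and 2 of 7 in GMPs were higher by that test. The 5 B cell markers summed to 27.2 to 43.1 against 65.2 to 102 CPM in LSKs and to 9.55 to 25.6 against 57.3 to 81.7 CPM in GMPs, nearly all of it *Cd79b*, and the 4 stroma and endothelium markers to 90.7 to 126 against 148 to 177 CPM in LSKs and to 224 to 342 against 120 to 163 CPM in GMPs, nearly all of it *Pecam1*. Of the 6 mast cell and basophil markers, 2 were called higher in UREΔ LSKs, with sums of 135 to 275 against 77.8 to 180 CPM, and in GMPs, at 686 to 2317 against 644 to 1140 CPM, 1 was called higher and 2 lower. The 4 megakaryocyte markers summed to 56.7 to 797 against 58.6 to 83.9 CPM in LSKs, where *Itga2b* was called higher (means of 155 and 41.9 CPM) and *Ppbp*, with a log2 fold change of 5.16 (edgeR adjusted p = 0.331), was not, and to 59.6 to 229 against 82.4 to 178 CPM in GMPs with none called. None of the 5 erythroid markers was called, with sums of 15.6 to 107 against 33.5 to 44.6 CPM in LSKs and 42.0 to 448 against 129 to 359 CPM in GMPs. The part of these shifts in the values of the 72 loci was not tested, and in bulk samples fewer cells of a type and less RNA per cell cannot be told apart.

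The transcripts that mark sex also moved with genotype, although the labels give no sex. *Xist*, expressed from the inactive X chromosome of females, was at 112 to 271 CPM in UREΔ LSK replicates 2, 3 and 4 and at 1.99 CPM in replicate 1, while in WT LSKs it was at 114 CPM in replicate 4 and at most 2.94 CPM in the others. The 4 Y-linked markers showed the reverse, with sums of 232 CPM in UREΔ LSK replicate 1 and at most 0.378 CPM in the others, and of 260 to 397 CPM in WT LSK replicates 1, 2 and 3 and 0.0448 CPM in replicate 4. The same replicate numbers stood apart in GMPs. The genotypes thus had the same pattern in replicates 1 and 4 and opposite patterns in replicates 2 and 3, and the tests below were also run with Y-linked expression as a covariate and with replicates 1 and 4 alone.

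*Spi1* encodes PU.1, an ETS factor that drives monocytic and lymphoid gene programmes and whose level in stem and progenitor cells depends on the URE enhancer. Gm and Rik symbols stand for transcripts found by annotation or cDNA cloning that have not received a name by function. They cover long intergenic non-coding RNAs (lincRNAs), antisense transcripts that run against a coding gene, transcript models that still await an experimental check (TEC), pseudogenes copied from the mRNA of another gene, and coding genes of unknown role. Many of these transcripts are expressed in few cell types, and pseudogenes can share nearly all of their sequence with the gene they came from, which leaves a quantifier little to separate the pair.

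Sequences are shown to identify a locus, to compare or mark promoter windows, or where base identity bears on how the counts can be read. *Gm10384* had the lowest log2 ratio of means plus 0.5 CPM in both cell types and none of its 31-base words occurs in the transcript of another gene, and the first bases of its spliced transcript in GENCODE M21 (GRCm38, chr15:36870501-36879816, minus strand) are shown to identify it.
Gm10384: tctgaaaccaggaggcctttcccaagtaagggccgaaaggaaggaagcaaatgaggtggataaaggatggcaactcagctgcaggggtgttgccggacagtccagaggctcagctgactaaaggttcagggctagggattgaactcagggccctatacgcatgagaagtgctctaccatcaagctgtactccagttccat

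*Gm43305* (promoter window chr14:54297439-54297738) and *Gm42031* (chr8:85131765-85132064) were the most abundant of the 72 loci in WT cells. Their RefSeq promoter windows (GRCm38.p6, minus strand, from 250 bases before to 50 bases after the start) differed at 6 of 300 bases, an identity of 98.0%, although they lie on different chromosomes. Capitals mark the bases that differ.
Gm43305: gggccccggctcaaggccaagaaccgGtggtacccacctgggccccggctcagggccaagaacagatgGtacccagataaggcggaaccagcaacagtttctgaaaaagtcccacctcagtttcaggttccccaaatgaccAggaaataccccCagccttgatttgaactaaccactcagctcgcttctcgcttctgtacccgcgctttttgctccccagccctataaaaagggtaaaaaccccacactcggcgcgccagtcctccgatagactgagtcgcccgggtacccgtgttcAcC
Gm42031: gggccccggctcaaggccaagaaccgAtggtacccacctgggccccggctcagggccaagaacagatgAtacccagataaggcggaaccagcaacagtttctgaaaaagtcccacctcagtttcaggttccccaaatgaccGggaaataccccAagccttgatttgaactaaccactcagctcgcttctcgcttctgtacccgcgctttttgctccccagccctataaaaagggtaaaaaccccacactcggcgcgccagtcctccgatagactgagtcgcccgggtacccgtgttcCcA

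*Gm26597* starts inside the body of *Flt3* and runs in the opposite direction across the *Flt3* start, without a shared exon base in GENCODE M21. The window of its second RefSeq start (chr5:147400204-147400503, plus strand) and that of *Flt3* (chr5:147400440-147400739, minus strand) overlap by 64 bases, which are in capitals and are the reverse complement of each other.
Gm26597: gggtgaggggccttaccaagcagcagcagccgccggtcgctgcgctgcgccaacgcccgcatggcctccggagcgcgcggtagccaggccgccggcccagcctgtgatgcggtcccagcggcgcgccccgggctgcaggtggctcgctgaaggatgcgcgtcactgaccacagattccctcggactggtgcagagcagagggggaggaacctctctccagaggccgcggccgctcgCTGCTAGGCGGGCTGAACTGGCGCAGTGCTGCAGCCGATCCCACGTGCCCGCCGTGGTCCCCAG
Flt3: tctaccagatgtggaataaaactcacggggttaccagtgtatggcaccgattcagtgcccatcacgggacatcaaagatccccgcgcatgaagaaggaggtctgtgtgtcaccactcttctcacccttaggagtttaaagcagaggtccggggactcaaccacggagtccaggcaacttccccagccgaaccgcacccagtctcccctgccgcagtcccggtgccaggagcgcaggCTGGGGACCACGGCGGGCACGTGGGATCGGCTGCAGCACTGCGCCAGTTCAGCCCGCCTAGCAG

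RefSeq promoter windows were matched by symbol for 36 of the 72 loci, with 52 windows in all. The hexamer GAGGAA, a core that PU.1 sites contain, was found on either strand in 15 of 31 windows (48.4%) of loci that were lower in UREΔ, in 2 of 21 (9.52%) of loci that were higher, and in 28.3% of all 32851 windows. The RUNX core TGTGGT was found in 5 of 31 (16.1%), 6 of 21 (28.6%) and 16.8% of all windows, respectively. These shares describe letters in windows of which several belong to 1 gene, and no binding was measured. *4930555A03Rik* (chr3:151293912-151294211, plus strand) is shown as a window with the hexamer, in capitals, ahead of a lincRNA that was lower in UREΔ LSKs.
4930555A03Rik: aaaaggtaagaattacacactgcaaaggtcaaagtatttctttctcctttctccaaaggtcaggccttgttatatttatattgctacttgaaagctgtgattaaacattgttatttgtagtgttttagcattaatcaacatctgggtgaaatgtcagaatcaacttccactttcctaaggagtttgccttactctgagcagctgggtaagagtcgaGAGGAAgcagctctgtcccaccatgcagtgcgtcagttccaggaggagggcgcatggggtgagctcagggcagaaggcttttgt

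*Gm4294*, a processed pseudogene of the ribosomal protein gene *Rpl15*, matched an *Rpl15* transcript over all of its 614 bases with a single difference, G609A, where the *Rpl15* base comes first and positions are counted from the 5′ end of *Gm4294*. The end of its GENCODE M21 transcript (chr12:12023045-12023658, plus strand), positions 579 to 614, is shown with that base in capitals, and nearly all of its 31-base words occur in other genes.
Gm4294: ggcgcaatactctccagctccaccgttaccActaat

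By GENCODE M21 biotype, 21 of the 72 loci were lincRNAs (29.2%, against 13.2% of the 1045 loci at 3 CPM), 16 were protein coding (22.2% against 26.5%), 10 were antisense transcripts (13.9% against 13.8%) and 9 were TEC models (12.5% against 21.7%). There were 7 processed pseudogenes (9.7% against 6.4%), 5 processed transcripts (6.9% against 9.4%) and 1 each of 4 other classes. Chromosome 5 held the most, 14 of 72 (19.4%) against 91 of 1045 (8.7%). Only *Gm13881* and *Gm13370* lie on chromosome 2 with *Spi1*, 12796268 and 66095924 bases away from it. Of the 72, 51 shared no exon base with another gene, 21 shared some, 31 overlapped the body of a protein-coding gene and 18 lay inside one. For 20 loci more than 50% of their 31-base words occurred in transcripts of other genes, and for 35 fewer than 5% did.

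**Figure D1:**
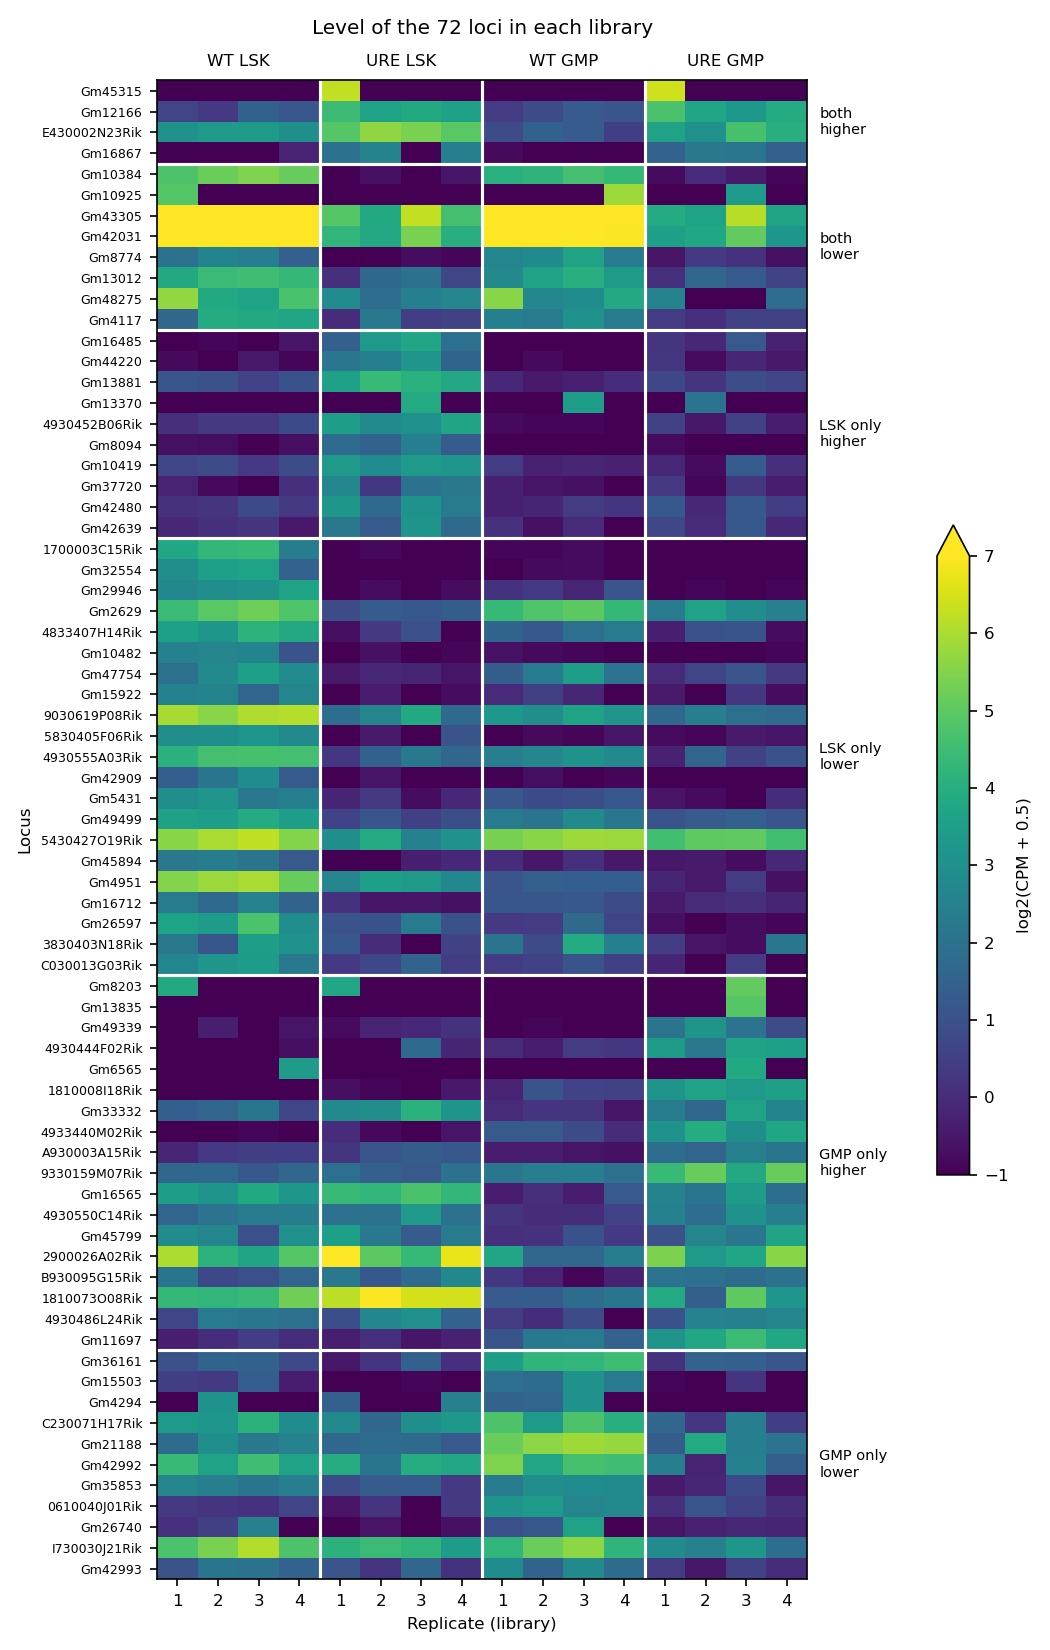
Heat map of log2(CPM + 0.5) for each of the 72 loci (rows) in each of the 16 libraries (columns, replicates 1 to 4 of WT LSK, UREΔ LSK, WT GMP and UREΔ GMP, where the plots write URE for UREΔ), with rows grouped by the cell type that kept the locus and its direction in UREΔ, and values above 7 drawn in the top colour. The 12 loci kept in both cell types are at the top, *Gm43305* and *Gm42031* are the brightest rows, and *Gm45315*, *Gm13835* and *Gm13370* are bright in single libraries only.

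Over the 4 groups, 27 loci had their highest mean in WT LSKs, 17 in UREΔ LSKs, 15 in UREΔ GMPs and 13 in WT GMPs. Among the 31 loci kept in LSKs alone, 15 were below 1 CPM in both GMP groups and 8 reached 3 CPM in one of them. Among the 29 kept in GMPs alone, 7 were below 1 CPM in both LSK groups and 14 reached 3 CPM in one. Of the 8 loci of the first set that reached 3 CPM in GMPs, 6 were called lower there. Of the 14 in the second set, 4 were called in LSKs in the direction of GMPs. Where a single genotype reached 3 CPM, that limit set the direction of the means. In GMPs this held for *3830403N18Rik*, *4833407H14Rik*, *4930555A03Rik*, *Gm47754* and *Gm49499*, which reached it in WT alone. Nothing is read from the directions in either set. As a description of what the rule selected, 37 of the 43 loci in LSKs had WT and UREΔ ranges that were apart, beside 12.8% of all genes tested there, and 31 of the 41 in GMPs, beside 15.3%. The edgeR test described below called 35 of the 43 in LSKs, beside 6.14% of all genes tested and 3.80% of the Gm and Rik loci tested (1.46% higher and 2.34% lower). In GMPs it called 30 of the 41, beside 8.30% of all genes tested and 6.02% of the Gm and Rik loci tested (3.44% higher and 2.58% lower). The rule used these contrasts, and nothing is read from the counts.

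The lincRNA *Gm10384* was near absent in UREΔ cells of both types. In WT LSKs the lincRNA had 26.6, 36.3, 43.0 and 34.6 CPM (35.1 ± 6.74 SD, n = 4), and in UREΔ LSKs it had 0, 4, 0 and 4 counts. In WT GMPs it had 16.3, 18.1, 24.4 and 19.5 CPM, and in UREΔ GMPs 2, 12, 5 and 1 counts. No UREΔ library came near a WT library. The log2 ratio of the means plus 0.5 CPM was -5.94 in LSKs and -4.80 in GMPs, and its nearest coding gene *Ywhaz*, 73572 bases away, had a log2 fold change of 0.21 in LSKs (edgeR adjusted p = 0.823) and -0.04 in GMPs (edgeR adjusted p = 0.970).

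*Gm43305*, a single-exon processed transcript, had the highest WT mean of the 72 in both cell types. Its WT LSK libraries had 881, 500, 557 and 239 CPM and its UREΔ LSK libraries 29.2, 13.9, 76.2 and 24.6 CPM. In GMPs the values were 637, 334, 426 and 211 CPM in WT 637, 334, 426 and 211 CPM in WT and 351, 289, 1401 and 257 counts in UREΔ, a mean of 27.2 CPM. All WT libraries were above all UREΔ libraries in both cell types, and replicate 3 was the highest UREΔ library in each. *Gm42031*, the lincRNA with the near-identical promoter window, had 255, 224, 225 and 136 CPM in WT LSKs and 18.8, 13.6, 41.7 and 16.2 CPM in UREΔ LSKs, and its GMP means were 166 CPM in WT and 16.6 CPM in UREΔ. Replicate 4 was the lowest WT library and replicate 3 the highest UREΔ library for both loci in both cell types. Of their 31-base words 22.9% (*Gm43305*) and 74.2% (*Gm42031*) occur in other genes, so counts may be shared with similar transcripts. The log2 ratios were -3.90 and -3.86 for *Gm43305* and -3.19 and -3.28 for *Gm42031*, in LSKs and GMPs respectively.

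Among the other loci that were lower in both cell types, the pseudogene *Gm8774* had 3.45, 5.65, 4.83 and 2.24 CPM in WT LSKs and 0, 0, 2 and 1 counts in UREΔ LSKs. The antisense transcript *Gm13012*, inside *Ece1* (an endothelin-converting enzyme), had 13.9, 21.2, 22.9 and 19.6 CPM in WT LSKs and 0.551, 2.75, 3.44 and 1.14 CPM in UREΔ LSKs, while *Ece1* had a log2 fold change of 0.22 (edgeR adjusted p = 0.956). WT and UREΔ values were apart for both loci. *Gm4117*, antisense to *Vcan* (a large matrix proteoglycan), had 2.63, 14.7, 14.0 and 12.6 CPM in WT LSKs and 0.508, 4.22, 0.885 and 0.999 CPM in UREΔ LSKs, so that 1 WT library fell below 1 UREΔ library. In GMPs its WT values of 4.31 to 8.12 CPM and its UREΔ values of 0.581 to 0.999 CPM were apart. *Gm48275* had 52.1, 13.9, 11.7 and 25.8 CPM in WT LSKs and 3.12 to 6.78 CPM in UREΔ LSKs, and its 287-base transcript is identical to part of *Gm42428*, so that its counts are uncertain.

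**Figure D2:**
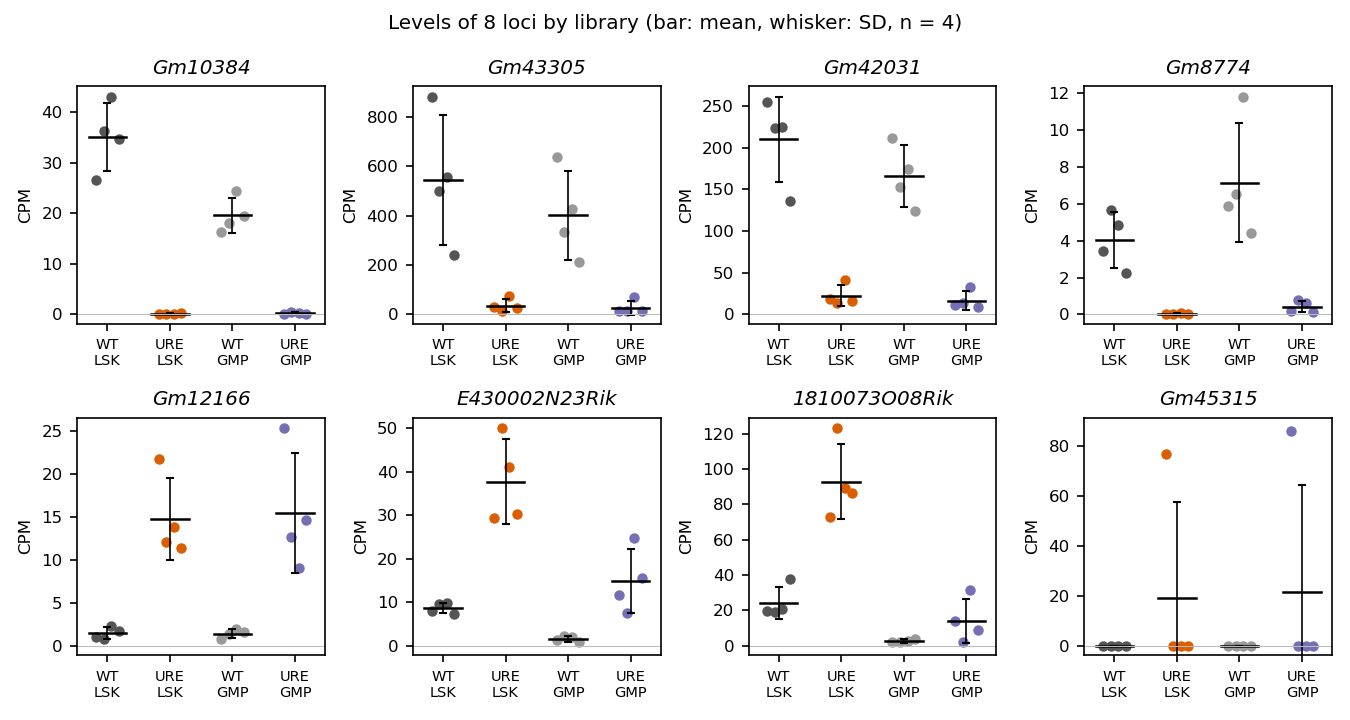
CPM of 8 loci (y axis, own scale for each panel) in the 4 groups (x axis), with 1 point per library, a bar at the mean and a whisker of 1 SD (n = 4, cut at the lower edge). *Gm10384*, *Gm43305*, *Gm42031* and *Gm8774* are lower in all UREΔ libraries of both cell types, *Gm12166* and *E430002N23Rik* are higher in all of them, 1 UREΔ GMP library of *1810073O08Rik* lies within the WT range, and *Gm45315* has counts in replicate 1 of UREΔ LSKs and UREΔ GMPs alone.

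The loci higher in both cell types were fewer, 4 in number, and 1 of them, the pseudogene *Gm45315*, had counts in UREΔ replicate 1 alone. The lincRNA *E430002N23Rik* had 8.05, 9.61, 9.79 and 7.39 CPM in WT LSKs and 692, 1456, 838 and 640 counts in UREΔ LSKs, a mean of 37.7 CPM. In GMPs it had 1.32, 2.30, 1.95 and 0.890 CPM in WT and 11.7, 7.60, 24.8 and 15.7 CPM in UREΔ. The genotypes were separate in both cell types, at a higher level in LSKs. *Gm12166* had 1.08, 0.754, 2.30 and 1.75 CPM in WT LSKs and 21.8, 12.1, 13.9 and 11.4 CPM in UREΔ LSKs, with nearly the same means in GMPs (1.44 CPM in WT and 15.5 CPM in UREΔ). It is a single-exon gene whose transcript is 99.5% identical to *Sft2d1* over 948 bases, and *Sft2d1* had a log2 fold change of -0.69 in LSKs (edgeR adjusted p = 0.143) and -0.72 in GMPs (edgeR adjusted p = 0.0613), and was called lower in both with the replicate block (edgeR adjusted p = 0.0172 and 0.0113). *Gm16867* had 83, 160, 0 and 105 counts in UREΔ LSKs and 0, 0, 0 and 8 counts in WT LSKs, so that 1 UREΔ library overlapped WT. Of its 31-base words 98.9% occur in other genes, and 91.8% of those of *Gm12166*.

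Among the loci kept in LSKs alone, the largest differences were in transcripts detected in WT LSKs and hardly in GMPs. *1700003C15Rik* had 351, 505, 432 and 107 counts in WT LSKs and 0, 2, 0 and 0 counts in UREΔ LSKs, with means of 0.0416 CPM in WT GMPs and 0 in UREΔ GMPs. *Gm32554* had 197, 293, 259 and 53 counts in WT LSKs and none in UREΔ LSKs, at least 63.2-fold lower when 3 counts in each library are taken as the limit. *Gm29946* had 165, 190, 173 and 266 counts in WT LSKs and 0, 3, 0 and 2 counts in UREΔ LSKs. These 3 lincRNAs were separate between genotypes in every library. *1700003C15Rik* and *Gm32554* belong to a group of 4 loci within 2.37 Mb of chromosome 5 (GRCm38, chr5:10187866-12558250) that were all lower in UREΔ LSKs. The other two are the lincRNA *Gm10482*, with 139, 153, 119 and 35 counts in WT LSKs and 0, 4, 0 and 1 counts in UREΔ LSKs, and the TEC model *Gm42909* in the body of *Sema3d*, with 57, 101, 146 and 42 counts in WT LSKs and 0, 6, 0 and 0 counts in UREΔ LSKs. Replicate 4 was the lowest WT library for all 4. Their GMP means were at most 0.0692 CPM in either genotype. Of the 31-base words of *Gm32554* 76.5% occur in other genes, and 49.5% and 43.5% of those of *Gm10482* and *1700003C15Rik*.

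The remaining loci kept as lower in LSKs alone included several that were detected in GMPs too and are tested there below. *Gm2629*, a lincRNA, had 21.3, 30.8, 37.3 and 27.6 CPM in WT LSKs and 1.27, 2.03, 1.82 and 2.05 CPM in UREΔ LSKs. In GMPs it had 501, 762, 684 and 420 counts in WT and 103, 282, 141 and 106 counts in UREΔ. It lies 94161 bases from *E430002N23Rik*, which was higher in UREΔ, so this pair of neighbouring lincRNAs differed in opposite directions. *9030619P08Rik*, a pseudogene 77.2% identical to the neutrophil antigen gene *Ly6g* over 945 bases, had means of 60.8 CPM in WT LSKs and 6.47 CPM in UREΔ LSKs. *5430427O19Rik* on the X chromosome had 57.4 and 8.66 CPM, and *Gm4951*, which is 86.2% identical over 1280 bases to the interferon-inducible GTPase gene *Iigp1*, had 49.4 and 8.09 CPM. *4833407H14Rik* had 12.9 and 0.577 CPM and has 67.0% of its 31-base words in other genes, and *Mirt1*, with which it shares sequence, had a log2 fold change of -2.08 ± 0.47 SE (edgeR adjusted p = 0.0289), a call lost without any of 5 single libraries and with the Y-linked covariate of the tests below.

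The loci kept as higher in LSKs alone were low or absent in WT LSKs. *Gm16485*, a single-exon locus, had 2.24, 9.27, 12.5 and 3.33 CPM in UREΔ LSKs and 0, 1, 0 and 4 counts in WT LSKs. The TEC model *Gm44220* had 3.94, 5.01, 8.55 and 2.47 CPM in UREΔ LSKs and 2, 0, 5 and 1 counts in WT LSKs. The lincRNA *Gm13881* had 11.4, 20.8, 16.6 and 13.6 CPM in UREΔ LSKs and 1.71, 1.47, 1.03 and 1.52 CPM in WT LSKs. Each of the 3 was separate between genotypes. *Gm13881* lies 39026 bases from *Lmo2*, a stem cell and erythroid transcription cofactor, which had a log2 fold change of -0.34 (edgeR adjusted p = 0.882). *4930452B06Rik*, *Gm10419* and *Gm8094* had means of 9.20, 8.56 and 3.09 CPM in UREΔ LSKs and at most 1.11 CPM in WT LSKs.

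The loci kept as lower in GMPs alone included a pair of similar genes on chromosome 13 that lie 15673 bases apart. *Gm36161* had 10.5, 18.4, 18.7 and 22.5 CPM in WT GMPs and 0.631, 2.37, 2.25 and 1.71 CPM in UREΔ GMPs. *Gm21188* had 35.0, 48.7, 57.1 and 52.3 CPM in WT GMPs and 2.06, 14.3, 4.94 and 3.62 CPM in UREΔ GMPs. The genotypes were separate for both, and because 81.6% of the 31-base words of *Gm36161* occur in other genes, and the transcripts of the pair are 95.7% identical over 1541 bases, the 2 sets of counts may not be independent. In LSKs their means were 1.87 and 4.99 CPM in WT and 0.912 and 2.62 CPM in UREΔ. *Gm15503*, a transcript inside *Rgs10*, had 3.27, 3.05, 7.98 and 4.40 CPM in WT GMPs and 1, 0, 13 and 0 counts in UREΔ GMPs. The 3 TEC models *C230071H17Rik*, *Gm42992* and *Gm42993*, all in the body of *Auts2* on its strand, had WT GMP means of 19.8, 26.1 and 4.76 CPM and UREΔ GMP means of 2.28, 3.17 and 0.643 CPM. *0610040J01Rik* and *I730030J21Rik* had 7.38 and 30.5 CPM in WT GMPs and 0.930 and 5.98 CPM in UREΔ GMPs.

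The loci kept as higher in GMPs alone were 18 in number, and 3 of them were also called higher in LSKs, as given below. *4930444F02Rik*, a lincRNA, had 9.80, 3.99, 11.8 and 10.9 CPM in UREΔ GMPs and 0.479, 0.287, 0.816 and 0.703 CPM in WT GMPs. *Gm49339* had 3.70, 8.31, 3.64 and 1.33 CPM in UREΔ GMPs and 0, 1, 0 and 0 counts in WT GMPs, and 98.9% of its exon bases belong to other genes too. *1810073O08Rik*, a lincRNA, had 14.3, 2.16, 31.5 and 8.75 CPM in UREΔ GMPs and 1.96, 2.08, 3.04 and 3.84 CPM in WT GMPs. The genotypes were separate for *4930444F02Rik* and *Gm49339*, while replicate 2 of the UREΔ GMPs lay within the WT range for *1810073O08Rik*. *1810008I18Rik* and *4933440M02Rik* had means of 10.2 and 10.8 CPM in UREΔ GMPs and at most 1.36 CPM in WT GMPs, with at most 0.192 CPM in either LSK group. The genotypes overlapped for *2900026A02Rik*, with 42.4, 9.43, 12.5 and 47.0 CPM in UREΔ GMPs and 12.9, 2.62, 2.72 and 4.64 CPM in WT GMPs. Within every replicate number, UREΔ was above WT for *2900026A02Rik* and for *1810073O08Rik*. In GMPs edgeR called both with the replicate block and neither in the main fit, a contrast that the rule used.

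Several kept loci had counts in 1 library of their higher group. In LSKs these were 3 of 43, *Gm45315* (1817 counts in UREΔ replicate 1), *Gm10925* (792 counts in WT replicate 1) and *Gm13370* (291 counts in UREΔ replicate 3). In GMPs they were 5 of 41, *Gm45315* (2048 counts in UREΔ replicate 1), *Gm8203* (661 counts in UREΔ replicate 3), *Gm13835* (583 counts, the same library), *Gm6565* (281 counts, the same library) and *Gm10925* (1202 counts in WT replicate 4). The remaining libraries of the higher group were at 0 in each case, so the group mean that passed the rule came from 1 library. All of these loci are pseudogenes with at least 99% of their 31-base words in other genes, and *Gm4294*, shown above, was at 0 in 1 WT GMP library and all UREΔ GMP libraries. *Gm6565* is identical over all of its 438 bases to *Ube2v2*, *Gm8203* over 387 bases to the histone gene *H2az1*, *Gm13835* over 685 bases to the proteasome gene *Psma3*, and *Gm10925* over 678 bases to the mitochondrial gene *mt-Atp6*. None of these 4 genes was called in either cell type, with log2 fold changes in GMPs of -0.31 for *Ube2v2*, -0.20 for *H2az1*, -0.19 for *Psma3* and 0.17 for *mt-Atp6*. *Gm6565* also had 228 counts in 1 WT LSK library, and *Gm8203* had 317 and 376 counts in 1 LSK library of each genotype.

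**Figure D3:**
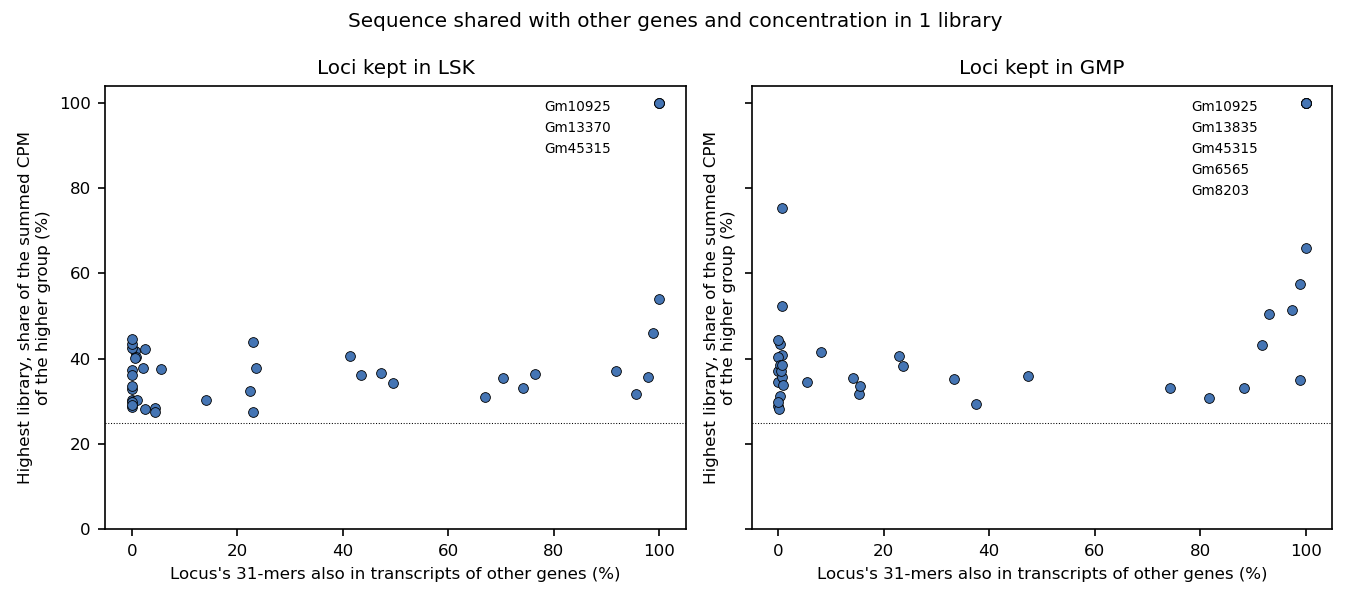
For the 43 loci kept in LSKs (left) and the 41 kept in GMPs (right), the share of the locus's 31-base words that also occur in transcripts of other genes (x axis, %) and the share of the summed counts of the higher genotype group that came from its highest library (y axis, %, with a dotted line at 25% for equal libraries). The y axis label reads CPM, but the shares were taken on counts. The named loci, 3 in LSKs and 5 in GMPs, have all of their counts in 1 library and lie at the right edge, where nearly every word is shared.

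Whether a locus chosen in one cell type also changed in the other is a comparison the choice did not use. A gene was called where the edgeR quasi-likelihood test gave an adjusted p below 0.05 and a fold change above 1.5, over all genes tested in that cell type. Of the 43 loci chosen in LSKs, 26 passed the filter on low counts in GMPs and 20 (46.5%) were called in the same direction and none in the opposite one, 4 of the 14 higher and 16 of the 29 lower, beside 4.67% of all genes tested called higher and 3.63% called lower in GMPs. Of the 41 chosen in GMPs, 28 were tested in LSKs and 12 (29.3%) were called in the same direction and none in the opposite one, 5 of the 22 higher and 7 of the 19 lower, beside 2.38% called higher and 3.76% called lower in LSKs. With Y-linked expression as a covariate the count of 20 was 10 and the count of 12 was 8. With replicates 1 and 4 alone, where the sex markers match between genotypes, they were 16 and 10, and with replicates 2 and 3 alone, where they are opposite, 4 and 8. The LSK and GMP libraries with the same number may come from the same mouse, which the labels do not state. Their sex markers matched at every number in each genotype, so LSKs and GMPs cannot be taken as separate mice.

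The ratios point the same way without a filter. The 29 loci lower in LSKs had a median log2 ratio of -1.52 in GMPs, with 28 below 0, and the 14 higher in LSKs had a median of 0.84 in GMPs, with 13 above 0, against a median of -0.03 over all 1045 loci. The 19 loci lower in GMPs had a median of -1.56 in LSKs, with all 19 below 0, and the 22 higher in GMPs had a median of 0.57 in LSKs, with 17 above 0, against -0.04 over all 1045. Among the loci with opposite signs, *Gm6565* (-2.61 in LSKs, against a positive ratio in GMPs) and *Gm13370* (3.03 in LSKs and -1.17 in GMPs) rested on single libraries, and *Gm11697*, *Gm8203*, *Gm45799* and *5830405F06Rik* had log2 ratios of -0.33, -0.05, -0.02 and 0.15 in the cell type that had not chosen them. *Gm13835* was at 0 in LSKs.

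**Figure D4:**
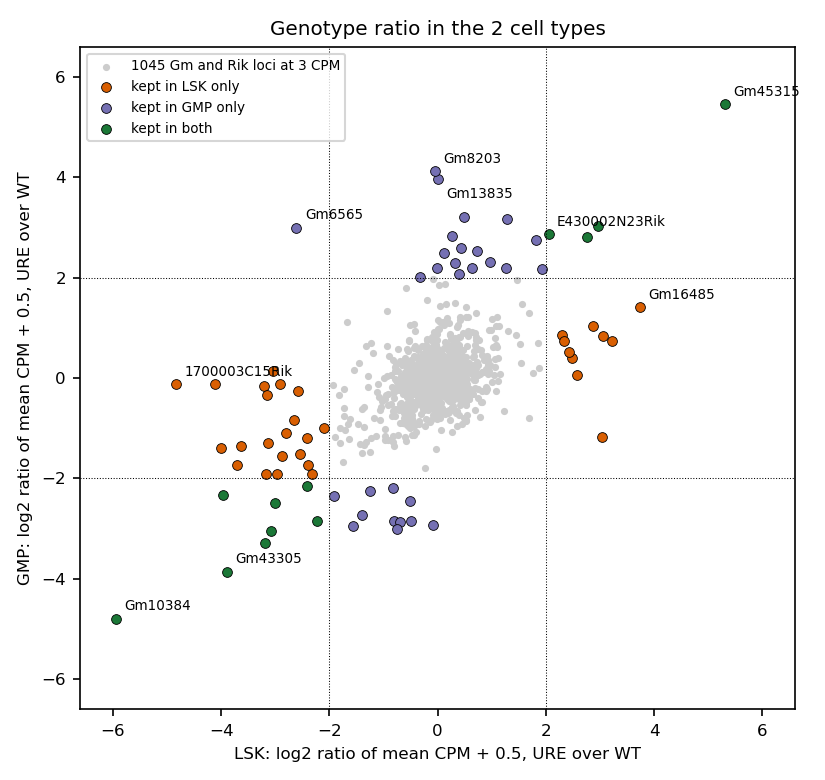
Log2 ratio of mean CPM + 0.5, UREΔ over WT, in LSKs (x axis) and GMPs (y axis) for the 1045 Gm and Rik loci at 3 CPM in a group (grey) and the 72 kept loci (coloured by the cell type that kept them), with dotted lines at a ratio of 4. The 12 loci kept in both lie in the lower left and upper right corners, and *Gm6565* and *Gm13370* lie farthest into the quadrants of opposite sign.

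Among loci kept in LSKs alone, *Gm2629* was lower in UREΔ GMPs by a log2 fold change of -1.75 ± 0.36 SE (edgeR adjusted p = 0.0164) and *Gm26597* by -4.22 ± 0.76 SE (edgeR adjusted p = 0.00936). *Gm4951*, *9030619P08Rik* and *5430427O19Rik* fell by 2.37, 1.35 and 0.80 on the log2 scale (edgeR adjusted p = 0.0141, 0.0187 and 0.0324). *5430427O19Rik*, at 27.8 CPM in UREΔ and 49.9 CPM in WT GMPs, passed the test with a small change. *Gm5431*, *Gm49499*, *Gm47754*, *Gm16712* and *4930555A03Rik* were lower in GMPs as well (edgeR adjusted p = 0.0444, 0.0280, 0.0358, 0.0111 and 0.0388). Only *Gm13881* among the risers kept in LSKs alone was called in GMPs, at 1.51 ± 0.38 SE (edgeR adjusted p = 0.0387), where its mean was 1.06 CPM in UREΔ and 0.381 CPM in WT. The calls were lost when any of 6 single libraries was left out for *5430427O19Rik*, *4930555A03Rik* and *Gm47754*, any of 7 for *Gm13881* and any of 3 for *9030619P08Rik*, and that of *Gm2629* without UREΔ replicate 4. The calls of *Gm5431* and *Gm49499* were each lost without any of 6 single libraries. With the Y-linked covariate, *Gm26597* alone of these 11 loci was still called in GMPs.

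Among loci kept in GMPs alone, *1810073O08Rik* was higher in UREΔ LSKs, at 73.1, 123, 89.0 and 86.5 CPM against 19.7, 18.9, 20.7 and 37.8 CPM in WT, a log2 fold change of 1.97 ± 0.30 SE (edgeR adjusted p = 0.00430). WT and UREΔ were apart, and replicate 4 stood above the other WT libraries. *Gm33332*, antisense in *Il20ra*, had 6.56, 7.18, 16.9 and 8.37 CPM in UREΔ LSKs and 2.11, 2.56, 3.84 and 1.08 CPM in WT LSKs, a log2 fold change of 2.03 ± 0.45 SE (edgeR adjusted p = 0.0271). *Gm16565* rose by 1.02 ± 0.23 SE (edgeR adjusted p = 0.0314) and *Gm35853* fell by 1.63 ± 0.39 SE (edgeR adjusted p = 0.0394). The calls of *Gm33332*, *Gm16565* and *Gm35853* were lost when any of 4, 7 and 6 single libraries was left out, and with the Y-linked covariate, while that of *1810073O08Rik* was lost with replicates 1 and 4 alone. The nearest coding genes of *Gm33332* and *1810073O08Rik* went the other way in LSKs, where *Il20ra*, an interleukin receptor subunit, had a log2 fold change of -1.52 ± 0.36 SE (edgeR adjusted p = 0.0362) and *Haao*, an enzyme of tryptophan breakdown, -3.71 ± 0.32 SE (edgeR adjusted p = 0.000266). The call for *Il20ra* was lost without any of 7 single libraries and with the Y-linked covariate. In GMPs *Il20ra* had 2.35 CPM in UREΔ and 1.07 CPM in WT, a log2 fold change of 1.16 in the direction of *Gm33332* (edgeR adjusted p = 0.0527, and 0.0463 with the replicate block), and *Haao* had -1.06 (edgeR adjusted p = 0.116, and 0.0358 with the block). Both were picked after their values were seen. With the block, *2900026A02Rik* and *I730030J21Rik* were also called in LSKs, at 1.16 and -1.19 (edgeR adjusted p = 0.0106 and 0.0198).

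The nearest protein-coding gene of each locus was not used by the rule. The 43 loci chosen in LSKs had 41 such genes, of which 27 were tested in LSKs and 12 (29.3%) were called in the direction of their locus and none in the other. With the replicate block these counts were 13 and 1, where *Slc22a3* had 0.70 (edgeR adjusted p = 0.0263) beside *C030013G03Rik*, which was lower. Of the 12 genes next to loci that were higher, 4 were called higher, and of the 29 next to loci that were lower, 8 were called lower, against 2.38% and 3.76% of all genes tested. Restricted to genes without a shared exon base the count was 11 of 37, and within 50000 bases it was 9 of 32. Of the called genes, *Pcdh7*, *Sema3d* and *BC035044* hold their loci in their bodies. The part of their unspliced RNA in the locus counts was not tested. With the Y-linked covariate the count of 12 was 8, without *Flt3*, *Ly86*, *Sema3d* and *Gm12185*, and with replicates 1 and 4 alone it was 9, without *Pgr*, *Sema3d* and *Gm12185*.

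**Figure D5:**
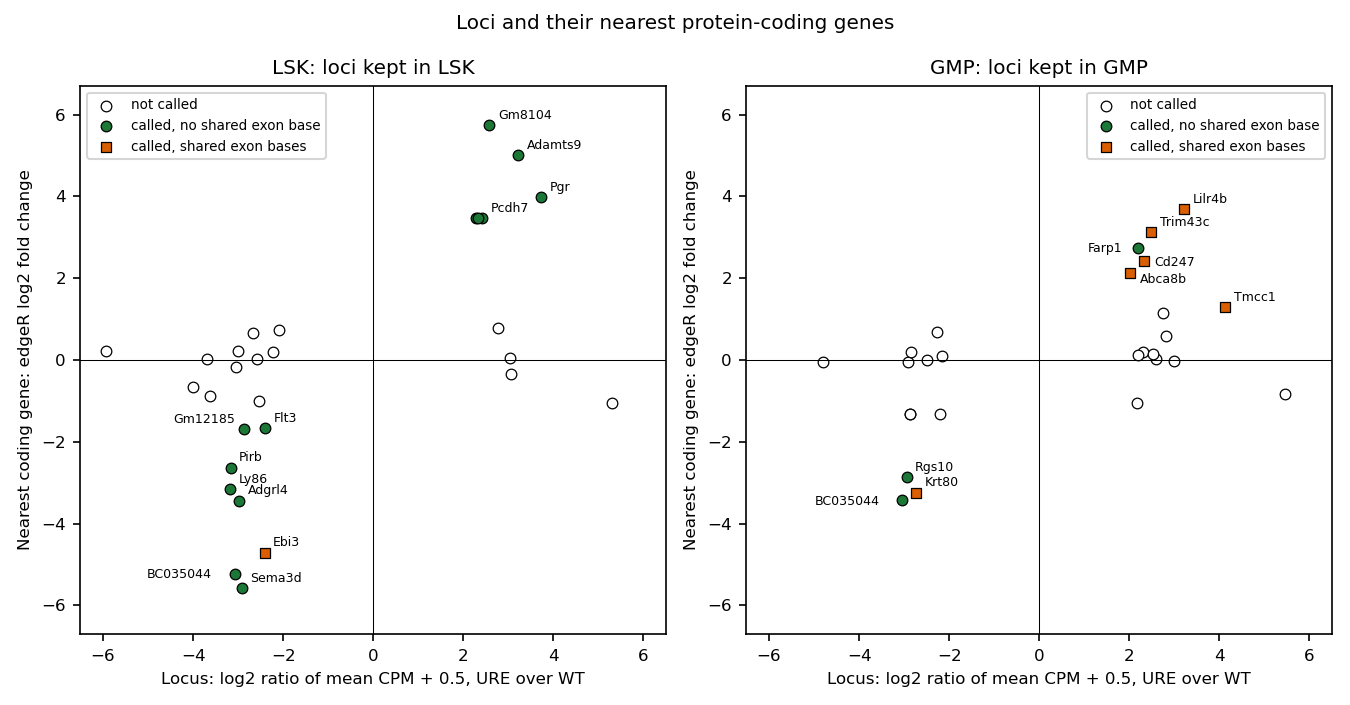
Log2 ratio of mean CPM + 0.5 of each locus, UREΔ over WT (x axis), against the edgeR log2 fold change of its nearest protein-coding gene (y axis), for loci kept in LSKs (left) and in GMPs (right) whose neighbour was tested. Filled symbols are called neighbours, named beside them, with squares where the pair shares exon bases, and every called neighbour lies on the side of its locus.

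*Adgrl4*, an adhesion G protein-coupled receptor, had means of 121 CPM in UREΔ and 1335 CPM in WT LSKs, a log2 fold change of -3.44 ± 0.20 SE (edgeR adjusted p = 5.19e-05). The lincRNA *4930555A03Rik*, 141246 bases away on the same strand, had 16.8, 24.5, 25.2 and 23.9 CPM in WT LSKs and 0.720, 2.27, 4.18 and 2.62 CPM in UREΔ LSKs. Every UREΔ LSK library of the lincRNA lay below every WT library. *Flt3*, the cytokine receptor of early progenitors and one of the dendritic markers, had 268 CPM in UREΔ and 861 CPM in WT LSKs (-1.67 ± 0.38 SE, edgeR adjusted p = 0.0295), and *Gm26597*, whose start lies 935 bases from that of *Flt3*, had 12.1, 10.3, 26.2 and 7.08 CPM in WT LSKs and 1.57, 1.54, 4.38 and 1.47 CPM in UREΔ LSKs. The call for *Flt3* was lost when any of 6 single libraries was left out, and in GMPs *Flt3* had a log2 fold change of -2.78 ± 0.43 SE (edgeR adjusted p = 0.00451). The 5 dendritic markers, *Flt3* among them, summed to 261 to 437 CPM in UREΔ LSKs against 829 to 1676 in WT LSKs, with 1 of the 5 at 0 in UREΔ LSKs, and their part in these values was not tested. *Ebi3*, a cytokine subunit, had 3.57 CPM in UREΔ and 94.4 CPM in WT LSKs (-4.71 ± 0.40 SE, edgeR adjusted p = 0.000239). *Gm16712*, its antisense neighbour with 270 shared exon bases, had 4.30, 2.86, 5.30 and 2.42 CPM in WT LSKs and 0.143 to 0.635 CPM in UREΔ LSKs, and reads on the shared bases cannot be told apart in unstranded libraries.

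*Ly86*, a monocyte marker that pairs with an innate immune receptor, lies 162041 bases from *Gm47754* and was lower in LSKs by -3.16 ± 0.72 SE (edgeR adjusted p = 0.0319), a call lost without any of 6 single libraries. It is one of the monocyte and macrophage markers whose sums are given above, and their part in this value was not tested. *Gm47754* had 92, 171, 235 and 151 counts in WT LSKs and 6, 13, 8 and 4 counts in UREΔ LSKs. *Pirb*, an inhibitory immunoglobulin-like receptor, fell by 2.63 ± 0.37 SE on the log2 scale (edgeR adjusted p = 0.00298) beside *Gm15922*, a pseudogene 99.5% identical to *Pira2* with 5.23, 5.65, 2.53 and 5.78 CPM in WT LSKs and 0, 8, 0 and 2 counts in UREΔ LSKs. *Pira2* itself had a log2 fold change of -3.82 ± 0.85 SE (edgeR adjusted p = 0.0285), a call lost without any of 6 single libraries or with the Y-linked covariate, and with 95.6% of its 31-base words in other genes the counts of *Gm15922* are uncertain. *BC035044* fell by 5.23 ± 0.47 SE (edgeR adjusted p = 0.000319), with *Gm8774* in its body on the opposite strand. *Sema3d*, a secreted guidance factor, fell by 5.58 ± 1.11 SE (edgeR adjusted p = 0.0172) with *Gm42909* in its body, and *Gm12185* by 1.68 ± 0.31 SE (edgeR adjusted p = 0.0113) beside *Gm5431*.

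Next to loci that were higher in LSKs, *Pcdh7*, a protocadherin, had 43.4 CPM in UREΔ and 3.95 CPM in WT LSKs, a log2 fold change of 3.47 ± 0.46 SE (edgeR adjusted p = 0.00233). The TEC models *Gm42480*, *Gm42639* and *Gm37720* lie in its body on its strand without sharing an exon base, and had means of 6.07, 4.25 and 3.55 CPM in UREΔ LSKs and 0.804, 0.473 and 0.257 CPM in WT LSKs. The 3 loci are thus counted beside 1 gene. *Pgr*, the progesterone receptor, had 37.9 CPM in UREΔ and 2.41 CPM in WT LSKs (3.99 ± 0.90 SE, edgeR adjusted p = 0.0289), lies 3180 bases from *Gm16485* on the same strand, and lost its call without any of 5 single libraries. *Adamts9*, a secreted metalloprotease, rose by 5.01 ± 0.72 SE (edgeR adjusted p = 0.00343) with *Gm44220* at a distance of 298228 bases. *Gm8104* rose by 5.74 ± 0.84 SE (edgeR adjusted p = 0.00358) near *Gm8094*, of which 97.9% of the 31-base words occur in other genes.

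The 41 loci chosen in GMPs had 38 nearest coding genes, of which 25 were tested in GMPs and 9 (23.7%) were called in the direction of their locus and none in the other, 6 of 22 next to loci that were higher and 3 of 16 next to loci that were lower, against 4.67% and 3.63% of all genes tested. With the replicate block 12 were called in the direction of their locus and 2 in the other, *Haao* beside *1810073O08Rik* and *Galnt6* (0.83, edgeR adjusted p = 0.0234) beside *I730030J21Rik*. Without shared exon bases the count was 3 of 29, namely *BC035044*, *Farp1* and *Rgs10*. The loci of these 3 lie inside the genes. The part of the genes' unspliced RNA in the locus counts was not tested. With the Y-linked covariate the count of 9 was 5, without *Abca8b*, *Farp1*, *Tmcc1* and *Trim43c*. With replicates 1 and 4 alone it was 8, without *Abca8b*, and with replicates 2 and 3 alone it was 1. Thus 6 of the 9 called genes shared exon bases with their locus in unstranded libraries. *Rgs10*, a regulator of G protein signalling, had 4.27 CPM in UREΔ and 31.2 CPM in WT GMPs, a log2 fold change of -2.87 ± 0.47 SE (edgeR adjusted p = 0.00564), with *Gm15503* in its body. *BC035044* fell by 3.43 ± 0.47 SE (edgeR adjusted p = 0.00249). *Farp1*, a guanine nucleotide exchange factor, had 4.40 CPM in UREΔ and 0.678 CPM in WT GMPs (2.75 ± 0.61 SE, edgeR adjusted p = 0.0230), a call lost without any of 4 single libraries, and holds *B930095G15Rik* in its body, with 3.05 to 3.62 CPM in UREΔ GMPs and 0.0453 to 0.718 CPM in WT GMPs.

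Of the pairs with shared exon bases, *Lilr4b*, an immunoglobulin-like receptor, rose by 3.69 ± 0.49 SE (edgeR adjusted p = 0.00225) and *Lilrb4a* by 2.49 ± 0.33 SE (edgeR adjusted p = 0.00233), and the exons of *Gm49339* lie almost wholly in these 2 genes. *Cd247*, the zeta chain of the T cell receptor, rose by 2.41 ± 0.44 SE (edgeR adjusted p = 0.00936) from 0.353 to 1.86 CPM, and *Gm16565* had 5.47, 3.86, 10.3 and 3.24 CPM in UREΔ GMPs and 0.279, 0.574, 0.272 and 1.87 CPM in WT GMPs. The 5 T and NK cell markers summed to 1416 to 1777 CPM in UREΔ GMPs against 520 to 907 in WT GMPs, with 1 and 2 of the 5 at 0. In LSKs they summed to 282 to 398 against 133 to 353 CPM, with *Gzmb* called higher (36.2 and 0.638 CPM). Nearly all of the GMP sum was *Nkg7* (means of 1473 and 726 CPM), followed by *Gzmb* (42.0 and 2.63 CPM), while *Cd3e* was at 0 in both and *Cd3g* and *Trbc2* were at most 0.741 CPM, and their part in these values was not tested. *Krt80*, a keratin, fell by 3.24 ± 0.61 SE (edgeR adjusted p = 0.0109) with *Gm35853* at 6.30 CPM in WT and 0.527 CPM in UREΔ GMPs. *Trim43c* rose by 3.12 ± 0.56 SE (edgeR adjusted p = 0.00888) with *9330159M07Rik* at 20.6, 34.9, 13.8 and 34.9 CPM in UREΔ GMPs and 3.33 to 4.90 CPM in WT GMPs. *Abca8b*, an ABC transporter, rose by 2.14 ± 0.41 SE (edgeR adjusted p = 0.0114) with *Gm11697*, and *Tmcc1* by 1.29 ± 0.26 SE (edgeR adjusted p = 0.0159) with *Gm8203*, which has counts in 1 UREΔ GMP library. The call for *Tmcc1* was lost without WT replicate 4. *Auts2*, host of 3 TEC models that were lower, had 5.60 CPM in UREΔ and 14.3 CPM in WT GMPs, a log2 fold change of -1.32 ± 0.45 SE that did not pass (edgeR adjusted p = 0.119), while with the replicate number as a block it did at -1.40 (edgeR adjusted p = 0.0231).

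At the edge of the rule, the loci just inside a ratio of 4 were *E430002N23Rik* (4.15, higher) and *C030013G03Rik* (4.27, lower) in LSKs, and *Gm11697* (4.02, higher) and *4930486L24Rik* (4.21, higher) in GMPs. Just outside were *1810073O08Rik* (3.78, higher) and *F830016B08Rik* (3.81, lower) in LSKs, and *Gm47754* (3.78, lower) and *2210010C04Rik* (3.94, higher) in GMPs. Thus *1810073O08Rik* and *Gm47754* were kept in 1 cell type and lay just below the threshold in the other.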

How the data were processed

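Low-input libraries of LSKs and GMPs from 4 UREΔ and 4 WT mice each (16 in all) were unstranded, without molecular identifiers, and made from 10 ng of RNA or all there was. The deposited values are estimated counts per gene, whole numbers that the authors made with Salmon and tximport on GRCm38, not normalized. The annotation release of these libraries is not given in the sources used here (the study names GENCODE vM25 for its single-cell data), and 54094 of 54347 identifiers matched GENCODE M21, from which biotypes, positions and exons were taken. CPM is the count over the column sum. Totals of 20028302 to 29128858 counts set the precision, and statements on depth cover counting error only.

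Genotypes were compared within a cell type with edgeR 4.0.16 in R 4.3.3 (TMM, filterByExpr, quasi-likelihood test, Benjamini-Hochberg over all genes tested, called at adjusted p below 0.05 and a fold change above 1.5). Fold changes of edgeR and ratios of means plus 0.5 CPM are both on the log2 scale. Counts were simulated with 4-fold changes, the same dispersion for every gene and no sex or replicate differences. In these, 195 of 200 changed genes were recovered in LSKs and 191 of 200 in GMPs, with 12 and 10 false calls. The real libraries differ in these respects, and recovery there was not tested. DESeq2 1.42.0, other scalings and filters, a replicate block, a covariate of Y-linked expression, pairs of replicates and leaving out each library were alternatives. Same-numbered UREΔ and WT libraries deviated together (correlations 0.30 to 0.61 in LSKs and 0.28 to 0.63 in GMPs). The replicate block therefore paired them by number, on the data alone. The main fit had no block, and all calls and counts come from it unless another setting is named. The nearest protein-coding gene was found by distance between gene bodies. Words of 31 bases and blastn 2.17.0 alignments were compared with the transcripts of all other genes. Promoter windows came from RefSeq (GRCm38.p6).

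The loci named are *Spi1*, the 6 with the largest ratio in each direction and cell type, those kept in both cell types, the 2 just inside and outside the ratio in each cell type, and called neighbours of these. All others were chosen after their values were seen. The members and lists were chosen with earlier results of these data known.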

Additional observations from a re-analysis of the deposited data

Results flagged for a closer look

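In 45 loci, which are not all of those named, 164 groups of 4 libraries were checked for a library far from the other 3 (Dixon's test at 95%). Of these groups 38 were flagged. For normally distributed values the test flags 1 in 20, or 8.2 here. A group with 3 libraries at 0 is flagged whatever the count of the other library, so 38 and 8.2 are not compared. All values are CPM of the library that stood apart.

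Of the 38, 15 fell on 7 pseudogenes that had counts in few libraries. *Gm45315* had 76.9 in UREΔ LSK replicate 1 and 86.1 in UREΔ GMP replicate 1. *Gm10925* had 29.4 in WT LSK replicate 1, 56.3 in WT GMP replicate 4 and 9.59 in UREΔ GMP replicate 3. *Gm13370* had 14.3 in UREΔ LSK replicate 3, 3.65 in UREΔ GMP replicate 2 and 10.7 in WT GMP replicate 3. *Gm6565* had 10.2 in WT LSK replicate 4 and 14.0 in UREΔ GMP replicate 3. *Gm8203* had 13.4 and 13.9 in replicate 1 of UREΔ and WT LSKs and 33.0 in UREΔ GMP replicate 3, where *Gm13835* had 29.1. *Gm4294* had 7.88 in WT LSK replicate 2.

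Single libraries also stood apart where a locus was near its floor. In UREΔ LSKs these were *1700003C15Rik* (0.0687) and *Gm42909* (0.206) in replicate 2, *Gm15503* (0.0492) and *4930444F02Rik* (2.80) in replicate 3, and *Gm16712* (0.635) in replicate 1. In WT LSKs they were *Gm16867* (0.358) and *4930444F02Rik* (0.134) in replicate 4. In GMPs they were *Gm16867* (0.0798, WT replicate 1), *Gm44220* (0.0718) and *Gm49339* (0.0359) in WT replicate 2, *Gm10482* (0.0476, UREΔ replicate 4) and *Gm15503* (0.649, UREΔ replicate 3).

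Among loci with counts in all libraries of the group, *Gm43305* had 70.0 in UREΔ GMP replicate 3, *Gm26597* had 4.38 in UREΔ LSK replicate 3 and 2.90 in WT GMP replicate 3, and *Gm4117* had 4.22 in UREΔ LSK replicate 2 and 8.12 in WT GMP replicate 3. *1810073O08Rik* had 37.8 and *Gm10482* 1.57 in WT LSK replicate 4. *4930555A03Rik* had 16.8 in WT LSK replicate 1. *Gm15922* had 2.53 and *9330159M07Rik* 1.78 in WT LSK replicate 3. *Gm16712* had 1.26 in WT GMP replicate 4.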

How the results depend on the processing

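The rule kept 72 loci, and 47 at a ratio of 6. It kept 52 to 96 under a higher minimum, another pseudocount, TMM library sizes, medians or a ratio of 3, and 69 to 81 without single libraries.

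Calls over all genes were 930 in LSKs and 1148 in GMPs with edgeR. They were 1637 and 2001 with DESeq2, 508 and 630 with the Y-linked covariate, and 565 to 961 and 715 to 1176 without single libraries. With replicates 1 and 4 alone they were 988 and 1236, and with replicates 2 and 3 alone 386 and 108. With the replicate block, which pairs the libraries by number, they were 1433 and 2260. The cause was not tested.

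Of the 20 loci chosen in LSKs and called in GMPs, the count was 10 with the Y-linked covariate, 4 with replicates 2 and 3 alone and 15 to 19 without single libraries. The 12 chosen in GMPs and called in LSKs became 9 to 12 without single libraries. The called neighbours were 9 to 11 in LSKs, from 12, and 7 to 9 in GMPs, from 9. The GMP neighbours were 5 with the Y-linked covariate, 1 with replicates 2 and 3 alone, and 3 when pairs with shared exon bases were left out, which tests fewer genes. Under the replicate block these 4 counts were 21, 15, 13 and 12, and with it no call was lost and 10 were gained in each cell type among the 72 loci, their nearest coding genes and the genes they resemble. The calls added to these counts were *Gm48275* in GMPs, *2900026A02Rik*, *I730030J21Rik* and *Gm4117* in LSKs, and among neighbours *Entpd4* in LSKs and *Auts2*, *Entpd4* and *Il20ra* in GMPs. *Haao* and *Galnt6* in GMPs and *Slc22a3* in LSKs were called against their loci, and in both cell types *Sft2d1* was called against *Gm12166*, which it resembles. The cause was not tested.

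The log2 ratio of *Gm10925* in GMPs reversed to 2.53 without WT replicate 4, and was -2.33 with all libraries and -4.87 without UREΔ replicate 3. The ratios of the other loci with counts in 1 library were 0.00 without that library. The uncalled fold change of *Lmo2* in LSKs was -0.64 to 0.10 without single libraries, and 0.10 without WT replicate 4. For the loci and genes named here and in the text whose alternatives were run, 1587 values counted as the same. The call was lost in 184 and gained in 27, while 27 values moved by over 1 SD and 2 reversed. The 1587 include the log2 ratio of *Gm10925* in GMPs by medians, which was 0.00. Depth limits loci of under 3 counts in a library, where presence and absence could not be separated.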
